A study of Mus musculus with 6 samples.

Results

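The response of Foxo1-deficient macrophages to interleukin 4 and interleukin 13 was read from a pair of arrays, one of unstimulated knockout cells and one of cytokine-treated knockout cells, out of 6 arrays in the series. The cells were bone marrow derived macrophages of C57BL/6 mice, differentiated over 7 days with 10% conditioned medium of L929 cells, which supplies the growth factor M-CSF. The knockout (KO) carried floxed FoxO1 alleles and LysMcre (genotype LysMcre FoxO1 Fl/Fl), a Cre driven by the lysozyme M locus, which is active in macrophages but also in monocytes and neutrophils. The reference genotype (WT) carried the same floxed alleles without Cre (FoxO1 Fl/Fl). M0 cells had no further treatment. The M2 state was set with IL-4 and IL-13, each at 10 ng/ml, for 24 h. M1 cells, used here only for side by side values, received 100 ng/ml LPS plus 20 ng/ml IFN-γ for the same time. Each genotype and state was 1 array, and the labels do not say how many mice gave the cells.

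Of 27361 gene names on the array, 19000 were measured, meaning that the brightest probe of the gene exceeded background clearly (the scanner's own flag, below "well above background") in 1 or both of the 2 KO arrays. Both arrays registered 17795 of these genes, 611 were measured on the M2 array alone and 594 on the M0 array alone. A level is the log2 of the processed signal minus the log2 of that array's 75th percentile, so a level of 0 is that percentile, and a difference is M2 minus M0. Both KO arrays lay on the same slide, and over the 6 arrays between 62.8% and 67.7% of probes were well above background and none was saturated. Levels of different genes come from different probes and are not compared. With 1 array a state the difference has no replicate check: genes are called higher or lower where the 2 arrays differ at least 2-fold, which is a rule of size and not a test. Where a gene was not well above background on one array, that side was set no lower than the dimmest probe there with every spot well above background, and the fold is given as "at least".

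Macrophages read IL-4 through a receptor of Il4ra with the common gamma chain Il2rg, and both cytokines through Il4ra with Il13ra1. Janus kinases on these chains phosphorylate STAT6, which enters the nucleus and switches on the alternative activation programme: arginase, chitinase-like lectins, eosinophil-associated ribonucleases, mannose and galactose lectins and the chemokines of type 2 immunity. Foxo1 is a forkhead transcription factor that insulin and growth factor signals through Akt keep out of the nucleus, and the series asks what its loss does to polarized macrophages and their MHC class II genes.

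The knockout was visible at Foxo1 itself. The brighter Foxo1 probe (mm9 chr3:52150183-52150242) had levels of -1.42 on KO M0 and -1.16 on KO M2, against 1.50 on both WT M0 and WT M2. WT was thus 7.56-fold above KO in M0 and 6.31-fold above it in M2. A second probe (chr3:52153289-52153348) gave 6.94-fold and 7.45-fold. Foxo1 RNA remained well above background on all 6 arrays, and within the KO pair it differed by 0.26 (log2) on the first probe and by 0.21 on the second. In bulk RNA a few undeleted cells with full expression and many cells with less RNA cannot be told apart.

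Treated KO macrophages had 801 genes at least 2-fold higher than unstimulated ones (4.22% of the 19000) and 723 at least 2-fold lower (3.81%). These shares are the background for every list count below. At 4-fold the counts were 196 (1.03%) and 104 (0.547%). Of the genes past 2-fold 52.6% were thus higher, but 5.50% under normexp background correction, which moved the median of all genes to -0.43. The bulk of the transcriptome stayed put: 72.8% of genes differed by less than 0.5 (log2) either way, the median difference was 0.01, and levels on the KO M0 and KO M2 arrays correlated across genes with a Pearson r of 0.982, where genes are not independent replicates. Probe noise could be read only from genes with more than 1 probe. Of the 15 highest genes only Retnla, and of the 15 lowest only Igfbp4 and Fcrl1, had a further probe measured on both arrays. In 6219 genes with 2 or more probes measured on both arrays, the SD of the difference over a gene's probes had a median of 0.14 and a 95th percentile of 0.51, and for 208 of 346 such genes past 2-fold every probe passed 2-fold the same way. The size of the folds depends on the background correction where the signal on either array is near the floor, M0 for higher genes and M2 for lower ones. Of 140 genes named in the text or by rule with a difference past 2-fold, 71 were smaller by over 1.5-fold under normexp, an alternative correction that adds an offset of 50, and none under array median or quantile scaling or in the authors' value table.

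**Figure D1:**
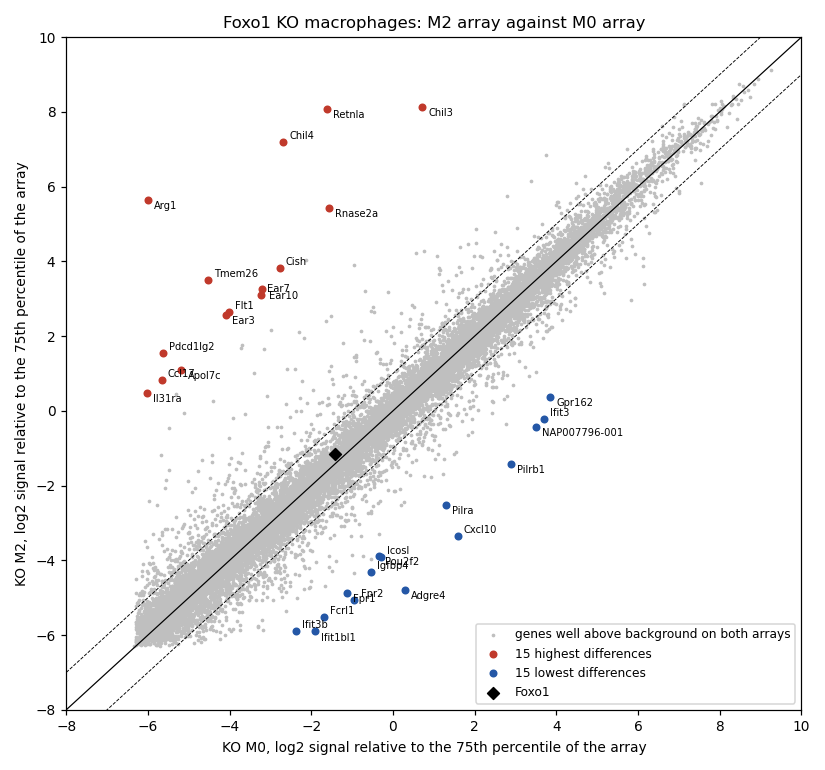
Level of each gene on the KO M0 array (x axis) and the KO M2 array (y axis), as log2 signal relative to the 75th percentile of the array, for the 17795 genes well above background on both; dashed lines mark 2-fold. The 15 highest differences (red) lie far above the band, from 6.27 for Apol7c to 11.66 for Arg1, and the 15 lowest (blue) reach -5.09 for Adgre4, while Foxo1 (black) lies on the diagonal.

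Most of the receptor and kinase chain differed little between the 2 arrays, and 3 feedback inhibitors were much higher. In the fixed list of IL-4 and IL-13 receptors and STAT6 signalling, 3 of 18 measured genes were higher, 1 was lower and the median difference was -0.11 (0.19 under normexp background correction). Stat6 stood at a level of 3.14 on KO M0 and 3.01 on KO M2, Il4ra at 2.54 and 2.06, Jak1 at 4.79 and 4.90, and Il2rg at 1.21 and 1.45, so none of these differed 2-fold. Il13ra1, the chain that binds IL-13, was the exception on the low side, with -1.36 on KO M0 and -2.80 on KO M2, a 2.71-fold lower level. The 3 higher genes all encode inhibitors of cytokine receptor signalling. Cish went from a level of -2.77 on KO M0 to 3.81 on KO M2, a 96.0-fold difference (6.58 in log2, 4.96 under normexp). Socs2 was 21.4-fold higher and Socs1 went from -0.69 to 3.21, whereas Socs3 was level at 3.08 and 3.06. The wider list of SOCS and feedback inhibitors had 5 of 22 higher and 2 lower, beside 4.22% and 3.81% over all genes, and a median of -0.04.

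STAT6 is known to prefer a split palindrome, TTC and GAA with a spacer of 4 bases, where other STAT proteins favour a spacer of 3. The longer form (TTC, any 4 bases, GAA), its own reverse complement, was searched in the 250 bases before the gene start in RefSeq promoters (GRCm38.p6). Among the 30 genes with the highest KO difference, 21 had a promoter in the table and 7 of these 21 promoters held the motif (33.3%): those of Apol7c, Ccl17, Hebp2, Pdcd1lg2, Plekhf1, Retnla and Tmem26. It occurred in 8 of 24 promoters of the M2 polarization list (33.3%), in 4.85% of the promoters of measured genes and in 5.85% of all 32851 promoters. The 8 belong to Ccl17, Clec7a, Il1rn (lower on KO M2), Itgax, Pdcd1lg2 and Retnla. Ccl17, Pdcd1lg2 and Retnla are also among the 7 above, so the list is not separate from them. The wider set of genes at least 4-fold higher had the motif in 8.28% of promoters, and that of genes at least 4-fold lower in 8.42%. The type I interferon list, whose genes were mostly lower, had it in 5 of 24 promoters (20.8%). The form with a spacer of 3 was present in 4 of the 21 promoters (19.0%), against 6.08% of promoters of measured genes and 7.02% of all promoters. A match is a string of letters, not a bound site, and no binding was measured here. Of the 7 promoters with the longer spacer, 4 are printed, each the 250 bases 5′ of the start on the plus strand with the match in capitals, because their genes are among the 15 highest; the windows are chr16:48842359-48842608 for Retnla, chr8:94810203-94810452 for Ccl17, chr19:29410669-29410918 for Pdcd1lg2 and chr10:68723496-68723745 for Tmem26.
Retnla: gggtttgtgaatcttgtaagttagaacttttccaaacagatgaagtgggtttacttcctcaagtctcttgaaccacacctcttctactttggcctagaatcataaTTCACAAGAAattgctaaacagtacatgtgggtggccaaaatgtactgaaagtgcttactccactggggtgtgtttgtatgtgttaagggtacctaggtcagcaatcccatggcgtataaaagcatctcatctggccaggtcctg
Ccl17: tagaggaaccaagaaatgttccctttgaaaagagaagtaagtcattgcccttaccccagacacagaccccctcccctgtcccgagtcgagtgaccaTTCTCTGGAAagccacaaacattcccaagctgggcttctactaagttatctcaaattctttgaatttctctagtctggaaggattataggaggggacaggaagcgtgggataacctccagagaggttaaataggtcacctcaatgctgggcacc
Pdcd1lg2: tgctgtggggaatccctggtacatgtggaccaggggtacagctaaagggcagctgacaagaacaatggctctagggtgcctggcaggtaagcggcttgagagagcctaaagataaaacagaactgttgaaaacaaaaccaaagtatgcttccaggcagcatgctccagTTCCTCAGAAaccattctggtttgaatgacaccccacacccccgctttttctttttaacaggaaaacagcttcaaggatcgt
Tmem26: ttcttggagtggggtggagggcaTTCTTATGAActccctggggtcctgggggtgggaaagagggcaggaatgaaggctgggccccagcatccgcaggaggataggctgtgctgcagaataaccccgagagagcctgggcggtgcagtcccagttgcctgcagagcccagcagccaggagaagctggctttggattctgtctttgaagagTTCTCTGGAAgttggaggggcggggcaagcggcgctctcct
The match began 145 bases before the start of Retnla, 154 before Ccl17 and 82 before Pdcd1lg2, and Tmem26 had matches 227 and 41 bases before its start. The promoter matches of Ccl17 and the second of Tmem26 were the same letters, TTCTCTGGAA.

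The M2 polarization list, genes widely used to mark macrophages treated with IL-4, was higher almost throughout. Of 23 measured genes 21 were at least 2-fold higher and 1 was lower, with a median difference of 4.68 (4.05 with dim genes at their bound), beside a median of 0.01 and 4.22% higher over all genes. The list is known from such cells and was chosen with results of these arrays known. On the KO M1 array, set against the same M0 array, 11 of the 23 genes were above M0, with a list median of -0.72. Arg1 was among these 11, with an M1 minus M0 difference of 6.53. Arg1, the arginase that turns arginine into ornithine and urea, had the largest difference of all genes measured on both arrays: -6.01 on KO M0 and 5.65 on KO M2, 11.66 apart or 3230-fold. Its KO M0 signal was 9.28, near the floor, and under normexp the difference was 6.88, below Retnla (8.93), Chil4 (8.18) and Chil3 (7.57). Its arginine transporter Slc7a2 went from -5.32 to 0.46, a 54.8-fold difference (2.04 in log2 under normexp), and the enzymes of the same pathway Ass1 and Gatm were 5.28-fold and 5.83-fold higher. Arg2, the mitochondrial arginase, differed by 0.37, and the polyamine enzymes Odc1 and Srm by 0.49 and 0.29. Tgm2, a transglutaminase often listed with this state, differed by 0.55. Il1rn, the interleukin 1 receptor antagonist, was the lower member, at 2.78 on KO M0 and 0.97 on KO M2.

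**Figure D2:**
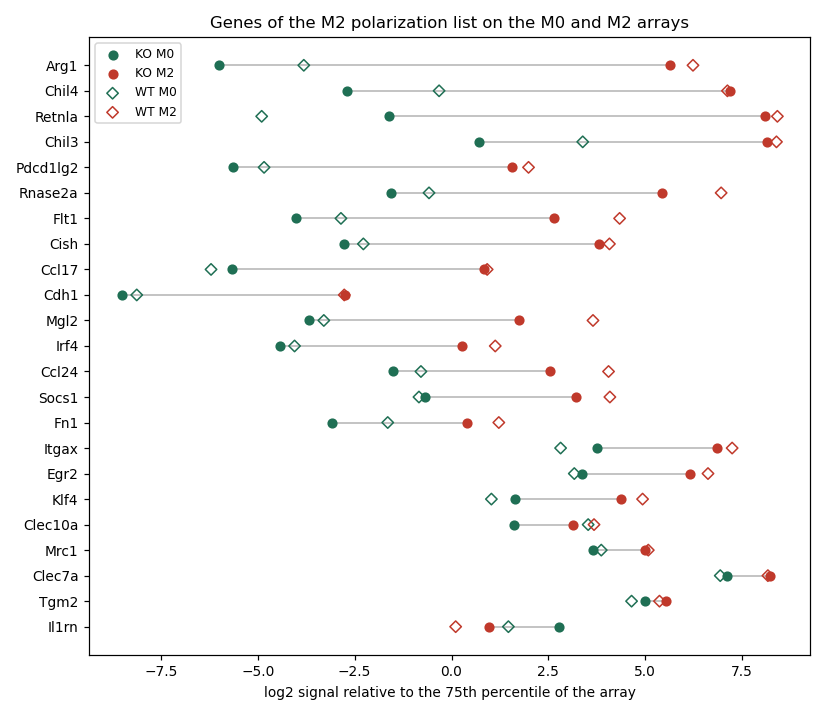
Level on each array (log2 signal relative to the 75th percentile of the array) for the 23 measured genes of the M2 polarization list, ordered by the KO difference; filled circles are KO, open diamonds WT, green M0 and red M2. The grey bar joins the KO pair, from 11.66 for Arg1 to -1.81 for Il1rn, and WT M2 lay above KO M2 for 18 of the 23 genes.

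The secreted effectors of this state formed the largest block of high values. Chil4 and Chil3, chitinase-like lectins that bind but do not digest chitin, had levels of -2.69 and 0.71 on KO M0 and of 7.19 and 8.14 on KO M2, differences of 9.88 and 7.43. Retnla, a small resistin-like protein of type 2 inflammation, stood at -1.62 on KO M0 and 8.08 on KO M2, an 831-fold difference, and its second probe gave a difference of 10.18. The eosinophil-associated ribonucleases went with them: Rnase2a (named Ear11 on the array) was 128-fold higher, Ear3 99.8-fold, Ear10 87.3-fold, Ear7 79.8-fold and Ear1 71.5-fold, and Ear6, not well above background on KO M0, at least 59.9-fold. Under normexp the log2 differences of Ear3, Ear10, Ear7 and Ear1 were 3.80, 4.54, 4.33 and 5.02, and that of Ear6 was 1.04. The chitinases proper, Chit1 and Chia1, differed by -0.30 and -0.25. Ear genes are close copies of one another, as are Chil3 and Chil4, so their probes may share signal and their single values are uncertain. The measured Ear genes lay on chromosome 14, with Ear1 near Ear10 and Ear3, and Ear7 near Ear6. The probes of Ear7 (mm9 chr14:52473799-52473858) and Ear6 (chr14:52473908-52473967) lay side by side. The probes of Ear3 (mm9 chr14:44500848-44500906) and Ear10 (chr14:44500822-44500881) overlapped in position, so their values are not separate measurements. Eosinophils also make these ribonucleases, and their part in the result was not tested. The mast cell, basophil and eosinophil marker list had a summed processed signal of 1898 on KO M0 and 1271 on KO M2, and its median difference was 0.39 over 11 measured of 18 genes (-1.47 under normexp); Siglecf was 1.72 higher and Ccr3 1.76 lower (a difference of -1.76).

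Chemokines parted by family. Ccl17, which draws Th2 cells through Ccr4, went from -5.66 on KO M0 to 0.83 on KO M2, a 90.2-fold difference (2.44 in log2 under normexp), and Ccl24, an eotaxin, from -1.52 to 2.54 or 16.6-fold. Of 16 measured CC chemokines 5 were higher and 2, Ccl3 and Ccl4, lower. None of the 10 measured CXC chemokines was higher and 6 were lower, with a median of -1.40 beside 3.81% lower genes overall. Cxcl10, an interferon-induced attractant of T cells, had levels of 1.59 and -3.35, a 30.6-fold lower value on the M2 array and the lowest difference but one of all genes measured on both. The neutrophil attractants Cxcl1 and Cxcl2 were 5.53-fold and 3.95-fold lower.

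At the cell surface the gains were in galactose and mannose lectins and in an inhibitory ligand. Mgl2, a galactose-binding lectin, was 43.5-fold higher (5.44 in log2, 3.12 under normexp), Mrc1, the mannose receptor, 2.54-fold, Clec10a 2.90-fold and Clec7a, the beta-glucan receptor, 2.15-fold. The pattern lectins Clec4e and Clec4n, which sense mycobacterial and fungal glycolipids, were 6.23-fold and 5.32-fold lower. The C-type lectin list thus split into 6 higher and 6 lower of 23, beside 4.22% and 3.81% over all genes. Pdcd1lg2, a ligand of the checkpoint receptor PD-1, stood at -5.64 on KO M0 and 1.56 on KO M2, a 146-fold difference (7.19 in log2, 3.19 under normexp), and Cd274, the other ligand, was 2.37-fold higher. Icosl, which costimulates T cells, was 12.2-fold lower. Receptors with large differences included Flt1, a VEGF receptor (-4.03 to 2.65, 102-fold), Il31ra, the IL-31 receptor chain (-6.03 to 0.47, 90.8-fold), and Tmem26, a membrane protein of beige fat, at 263-fold; under normexp their log2 differences were 3.92, 1.88 and 4.96. The ST2 chain Il1rl1, through which IL-33 acts, was 4.50-fold higher (-0.19 on the log2 scale under normexp). Its neighbour Il1rl2 had a difference of 2.19 (0.59 under normexp).

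The genes of MHC class II, which present peptides to CD4 T cells, were higher after treatment in the knockout. Of 10 measured genes 7 were at least 2-fold higher and none was lower, beside 4.22% higher over all genes. The median difference was 1.35. Ciita, the transactivator on which the others depend, had levels of -1.52 on KO M0 and 1.19 on KO M2, a 6.55-fold difference. H2-Ab1 went from 4.48 to 6.09 (3.05-fold, with its 4 probes between 1.61 and 1.88), H2-Aa from 2.20 to 3.53, H2-Eb1 from 2.64 to 3.86 and Cd74, the invariant chain, from 5.26 to 6.63. The peptide loading chains H2-DMa and H2-DMb1 were 4.77-fold and 3.01-fold higher, whereas Ctss, the protease that trims the invariant chain, differed by -0.02. On WT arrays the same genes began and ended higher: Ciita stood at 0.86 on WT M0 and 2.52 on WT M2, H2-Ab1 at 5.74 and 6.72, and Cd74 at 6.32 and 7.55. KO lay below WT for 8 of the 10 genes in M0 and 9 of 10 in M2, with median gaps of -1.11 and -0.89, while the KO difference between states exceeded the WT one for 6 of the 10. MHC class I genes moved less: 1 of 19, Psmb10, was higher, a share near the 4.22% of all genes, and the median was 0.33.

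Among polarization transcription factors, 8 of 36 were higher and 2 lower, beside 4.22% and 3.81% over all genes. Irf4, a factor required for this programme, had levels of -4.42 on KO M0 and 0.27 on KO M2, a 25.7-fold difference (4.68 in log2, 1.89 under normexp). Bhlhe40 was 9.87-fold, Nfil3 8.31-fold, Egr2 6.81-fold, Klf4 6.70-fold, Batf3 6.22-fold and the mitochondrial coactivator Ppargc1b 6.09-fold higher. Pparg, the lipid-sensing receptor, and Myc were just under the 2-fold mark at 0.99 each. Maf and Nr4a1 were the lower members, at -1.34 and -1.65. The lineage factors Spi1 and Cebpa differed by 0.15 and 0.45. Of 26 measured FoxO factors and targets none was higher and 1 was lower, a share near the 3.81% of all genes; it was S1pr1, a sphingosine phosphate receptor, with a difference of -2.16. Their median was -0.13.

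Metabolic lists had few genes past 2-fold. All 33 measured subunits of oxidative phosphorylation had a positive difference, from 0.16 for Ndufa9 to 0.80 for Cycs, and none reached 2-fold (median 0.47). The same 33 were positive under array median, quantile and normexp scaling and in the authors' value table, and the lowest members are close to the median probe SD of 0.14. On the KO M1 array, set against the same M0 array, 29 of the 33 were also positive, with a median of 0.46. Sterol and fatty acid synthesis had a median of 0.57 with 3 of 26 higher, among them Idi1 at 1.28 and Dhcr7 at 1.23. Glycolysis and Hif1a genes had a median of -0.06 (0.11 under normexp), and cell cycle and DNA replication genes one of -0.10 with 1 of 39 higher, Ccnd1 (1.04), and 1 lower, Cdc6 (-1.49). Iron handling parted at the membrane: the transferrin receptor Tfrc, which imports iron, went from 2.51 to 4.79, and the exporter Slc40a1 from 6.11 to 3.88. In lipid mediator genes, the leukotriene receptor Ltb4r1 was 9.43-fold and the cyclooxygenase Ptgs1 4.69-fold higher, and Hpgd, which inactivates prostaglandins, 6.25-fold lower. Under normexp the log2 difference of Ltb4r1 was 0.48, under 2-fold, and that of Ptgs1 was 2.52. Purine receptors parted, with P2ry1 9.17-fold higher and P2ry13 5.93-fold lower. Of the genes of cell fusion, by which IL-4 makes giant cells, Ocstamp was 17.5-fold higher, Itgb3 4.98-fold, Dcstamp 2.05-fold and Cdh1, E-cadherin, at least 12.2-fold; the sign of Cdh1 turns to -0.53 (log2) under normexp, where it is dim on KO M0.

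**Figure D3:**
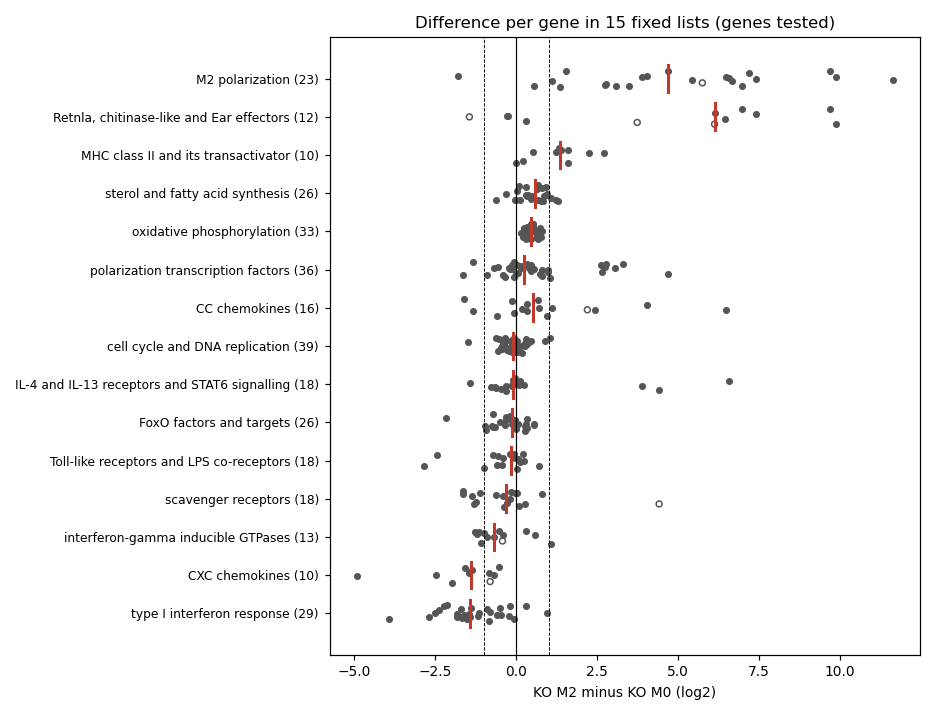
KO M2 minus KO M0 (log2, x axis) for each measured gene of 15 fixed lists, with the number measured in brackets; open points were well above background on only 1 of the 2 arrays, red bars are list medians and dashed lines 2-fold. Medians run from 6.15 for the Retnla, chitinase-like and Ear effectors and 4.68 for the M2 polarization list to -1.43 for the type I interferon response, and the oxidative phosphorylation genes form a tight column around 0.47.

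On the low side the type I interferon response stood out in count. These genes answer to interferon alpha and beta and block viral replication. Of 29 measured 18 were at least 2-fold lower and none was higher, beside 3.81% lower and 4.22% higher over all genes. The list median was -1.43. Ifit3 had levels of 3.70 on KO M0 and -0.23 on KO M2, a 15.3-fold lower value, Ifit1 0.94 and -1.76, Rsad2, which encodes viperin, 2.79 and 0.40, and Oas2 2.46 and 0.23. Irf7, the factor that amplifies the response, was 3.18-fold lower and Isg15, a ubiquitin-like protein, 2.65-fold. Usp18 differed by -0.22, and Mx1 and Zbp1 were positive at 0.94 and 0.29. Of 13 interferon-gamma inducible GTPases 4 were lower (3.81% over all genes), Irgm2, Tgtp1, Gbp6 and Igtp, and 1, Gbp2, was higher. On the KO M1 array, which is set against the same M0 array, all 29 interferon genes were above M0 instead, with a median of 3.87.

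A motif of the interferon type (GAAA, any 2 bases, GAAA, on either strand) was added after the values had been seen. It occurred in 9 of 26 promoters of the 30 lowest genes (34.6%) and in 9 of 24 of the interferon list (37.5%), against 2.81% of promoters of measured genes and 2.98% of all. The lowest genes that held it were Cxcl10, Ifit1, Ifit1bl1, Ifit3 and Ifit3b, which are interferon targets, and Pilra, Pilrb1 and Pilrb2, paired receptors of myeloid cells for which it is shown here as a description. Cxcl10 and Ifit3 are printed as the interferon pair and Pilra and Pilrb1 as the receptor pair, 250 bases 5′ of the start with matches in capitals. The windows are chr5:92348890-92349139 for Cxcl10, chr5:137836279-137836528 for Pilra and chr5:137858050-137858299 for Pilrb1, all on the minus strand, and chr19:34583279-34583528 on the plus strand for Ifit3.
Cxcl10: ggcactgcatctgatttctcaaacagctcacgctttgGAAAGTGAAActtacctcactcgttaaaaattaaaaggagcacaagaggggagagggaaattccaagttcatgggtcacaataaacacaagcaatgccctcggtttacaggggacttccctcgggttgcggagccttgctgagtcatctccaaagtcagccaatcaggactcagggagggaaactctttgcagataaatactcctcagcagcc
Ifit3: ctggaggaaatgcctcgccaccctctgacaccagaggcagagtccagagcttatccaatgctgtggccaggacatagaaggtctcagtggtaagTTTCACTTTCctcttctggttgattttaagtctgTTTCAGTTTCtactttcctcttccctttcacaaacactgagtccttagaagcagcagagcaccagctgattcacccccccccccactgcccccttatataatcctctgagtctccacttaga
Pilra: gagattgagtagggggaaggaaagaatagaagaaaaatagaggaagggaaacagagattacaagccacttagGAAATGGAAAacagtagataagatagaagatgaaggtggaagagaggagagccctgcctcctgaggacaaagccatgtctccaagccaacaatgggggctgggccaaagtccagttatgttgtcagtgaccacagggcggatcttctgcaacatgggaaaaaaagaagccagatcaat
Pilrb1: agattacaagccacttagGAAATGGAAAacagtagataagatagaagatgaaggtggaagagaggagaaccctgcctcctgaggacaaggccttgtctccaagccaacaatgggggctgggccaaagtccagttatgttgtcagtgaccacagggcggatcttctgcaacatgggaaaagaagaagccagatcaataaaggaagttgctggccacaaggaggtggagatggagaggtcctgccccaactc
The match lay 213 bases before the start in Cxcl10, 156 and 122 in Ifit3, 178 in Pilra and 232 in Pilrb1. Pilra and Pilrb1 hold the same match, GAAATGGAAA, and are close copies of each other.

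Adgre4, an adhesion receptor of the F4/80 family, was the lowest of all genes measured on both arrays, at 0.29 on KO M0 and -4.80 on KO M2, 34.0-fold lower. Its KO M2 signal was 22.6, near the floor. Under normexp its difference was -3.20, less negative than those of Cxcl10 (-3.84), Pilrb1 (-3.60) and Ifit3 (-3.53). Pilrb1, an activating paired receptor, went from 2.88 to -1.41 (19.6-fold), its inhibitory partner Pilra from 1.30 to -2.51 (a difference of -3.81) and Pilrb2 from -0.53 to -3.98 (10.9-fold, with its other probe at -4.58). The formyl peptide receptors Fpr1 and Fpr2, which guide phagocytes to bacterial peptides, were 13.4-fold and 17.3-fold lower. Under normexp the log2 differences of these receptors were -2.44 and -2.52. Neutrophils carry both receptors too, and the summed signal of neutrophil markers was 10773 on KO M0 and 6050 on KO M2; their part in the result was not tested. In the sensing of bacterial lipids, Cd14 went from 5.83 to 2.97 and Tlr2 from 3.49 to 1.04, whereas Tlr4 was level at 2.06 and 2.10. Il1b was 7.74-fold and Tnf 2.04-fold lower. The high-affinity IgG receptor Fcgr1 was 4.05-fold lower, while the inhibitory Fcgr2b was 1.85 (log2) higher. Other genes among the 15 lowest were Igfbp4, Fcrl1, Gpr162 and Pou2f2.

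**Figure D4:**
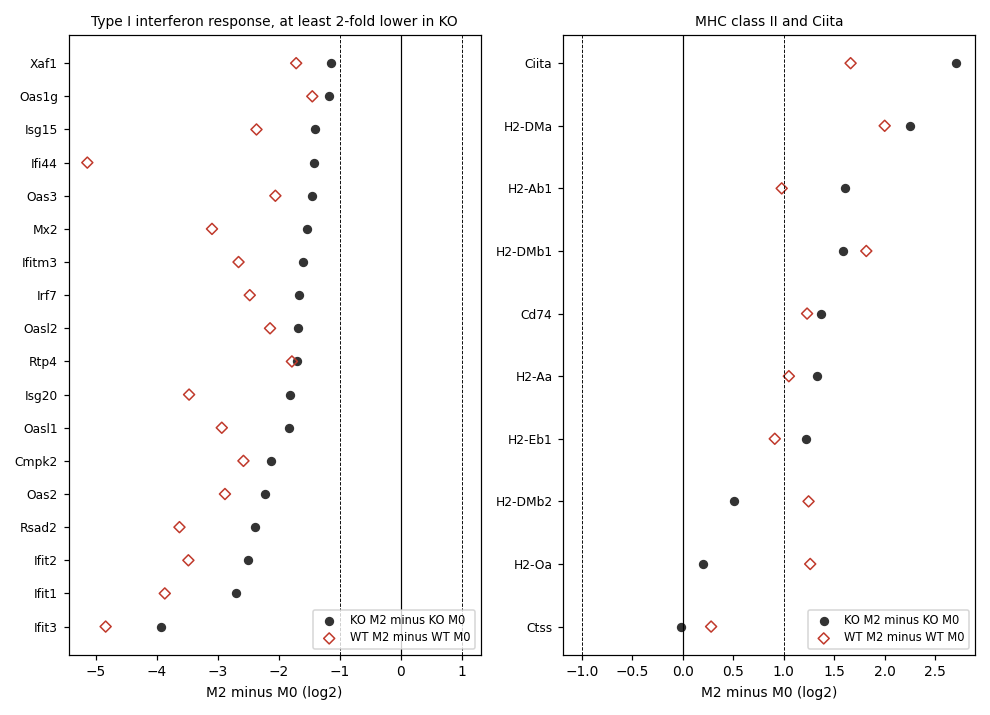
M2 minus M0 (log2, x axis) for the 18 genes of the type I interferon list at least 2-fold lower in KO (left) and the 10 measured genes of the MHC class II list (right), as black circles for KO and open red diamonds for WT; dashed lines mark 2-fold. KO circles reach -3.93 at Ifit3 and 2.71 at Ciita, and all 18 interferon genes plotted have a less negative KO than WT value.

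Some genes were well above background on only 1 of the 2 arrays of the KO pair, and KO M1 is not part of that rule. On KO M1 Tarm1 had a level of 1.60, against -1.43 on KO M2. Lcn2 had one of 2.22 there, against -3.83 on KO M0. On the M2 array only, the largest bounds were those of Ear6, Rbp4, Tarm1, Lipn, Gm8221, Snhg11, Olr1 and Msx3, from at least 59.9-fold for Ear6 to at least 16.9-fold for Msx3. Olr1, a receptor for oxidized LDL, was at least 21.4-fold higher, Lipn, a lipase, at least 30.3-fold, and Tarm1, an activating receptor of myeloid cells, at least 30.4-fold. Under normexp none of these 3 or Gm8221 reached 2-fold, with log2 differences of 0.10 for Olr1, 0.34 for Lipn, 0.37 for Tarm1 and 0.14 for Gm8221. The 2 other probes of Snhg11 gave -0.43 and 0.40, so its probes disagree, and Msx3 and Snhg11 turn to -0.12 and -0.06 under normexp. On the M0 array only, the largest were Esm1, a proteoglycan of endothelium, at least 8.09-fold lower, Fxyd2 (at least 6.30-fold), Ppm1n (at least 5.87-fold) and Lcn2, a neutrophil and macrophage siderophore binder, at least 5.63-fold, followed by Skint3, Rtn2 and 2 unnamed transcripts.

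Genes with large differences lay within 200 kb of another gene of the same direction in a larger share than genes at large, though most did not. Among genes at least 4-fold lower with a mapped probe, 36 of 104 (34.6%) had another such gene within 200 kb, a distance at which 3.25% of all 18559 measured genes with a position had one. For genes at least 4-fold higher it was 34 of 194 (17.5%) against 6.09%. Some groups were gene families, such as 6 probes named Ifit2, Ifit3, Ifit1bl1, Ifit3b, Ifit1 and an unnamed transcript between them (mm9 chr19:34650244-34723855), Pilra, Pilrb1 and Pilrb2 with Nyap1 (chr5:138172262-138312821), Fpr1 with Fpr2, Ms4a4c with Ms4a4d and Clec4n with Clec4e on the low side. On the high side families were Ear1, Ear10 and Ear3 (chr14:44396709-44500906), Ear7 with Ear6 (chr14:52473799-52473967), Chil3 with Chil4 (chr3:105950485-106007043) and Il1rl1 with Il1rl2. Unrelated neighbours that were higher together included Il31ra with Ddx4, a germ cell RNA helicase, and Mcf2l with the coagulation gene F10. Other groups joined a named gene to an unnamed transcript close by, such as Nfkbiz with AK136384, Pou2f2 with AK149231 and Plxdc2 with BE307515. Such pairs may be the same gene counted under different names. Family members can share probe signal, and how far either limit sets these counts was not tested.

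The cells carried macrophage RNA in both states. All 16 macrophage markers were well above background on both KO arrays, Csf1r at 6.82 and 6.72, Adgre1 (F4/80) at 7.39 and 7.02 and Cd68 at 6.98 and 7.06; 4 were lower, Cd14, Fcgr1, Mertk and Aif1, and none higher. Of 14 measured neutrophil markers 5 were lower and 1, Cxcr2, was higher (-1.34 under normexp), and their summed processed signal was 10773 on KO M0 and 6050 on KO M2, against 45837 and 17553 on WT M0 and M2. Of 18 stromal markers 4 were lower (3.81% over all genes), with sums of 48612 and 54080. Liver transcripts summed to 328 and 723 on the KO pair and to 21126 on WT M0. Rbp4, a retinol carrier, was at least 48.1-fold higher on KO M2, but its log2 difference was 1.01 under normexp. Its neighbour Ffar4 had a difference of 3.70, or -0.03 under normexp. Without Rbp4 the liver sums were 323 and 354. The part of contaminating cells in the differences was not tested beyond these values.

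Set beside WT, most of the KO response had the same direction. The WT pair shares no array with the KO pair, but WT M0 lay on another slide than WT M2 and carried liver RNA, so its differences mix slide, contamination and treatment. Both genotypes could be compared in 16671 genes, those the scanner placed well above background in all 4 cases. Of these, 575 passed 2-fold upward in KO (3.45%) and 2387 in WT (14.3%), and 396 were higher in both, which is 68.9% of the KO list and 16.6% of the WT list. For lower genes the counts were 598 (3.59%), 1159 (6.95%) and 467 shared, or 78.1% and 40.3%. Of the 575 genes higher in KO 543 had a positive WT difference, and of the 598 lower ones 577 a negative one. The differences correlated across these genes with a Pearson r of 0.639 and a Spearman rho of 0.558, over 4 arrays.

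The size of the response differed gene by gene with no test available. Arg1 had a difference of 11.66 in KO and 10.04 in WT, Chil4 9.88 and 7.44, Retnla 9.70 and 13.31, and Mgl2 5.44 and 6.95. For Arg1, Chil4, Retnla and also Chil3 the M0 arrays differed most: Arg1 stood at -6.01 on KO M0 and -3.81 on WT M0, Chil4 at -2.69 and -0.32, Chil3 at 0.71 and 3.39 and Retnla at -1.62 and -4.90. On the M2 arrays KO and WT were closer, at 5.65 and 6.23 for Arg1, 7.19 and 7.12 for Chil4, 8.14 and 8.38 for Chil3 and 8.08 and 8.41 for Retnla. For Mgl2 the gap lay in M2, at 1.75 in KO and 3.65 in WT. Type I interferon genes had the less negative difference in KO for 28 of 29, and here too the M0 arrays differed: KO was below WT for 28 of 29 in M0 (median gap -0.78) and for 14 of 29 in M2 (median gap 0.01). All 26 sterol and fatty acid genes had a smaller difference in KO than in WT. The p53 target list differed in level, KO being above WT by a median of 1.17 in M0 and 1.66 in M2. Of its 23 genes 3 were higher in KO M2 than KO M0, beside 4.22% over all genes.

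**Figure D5:**
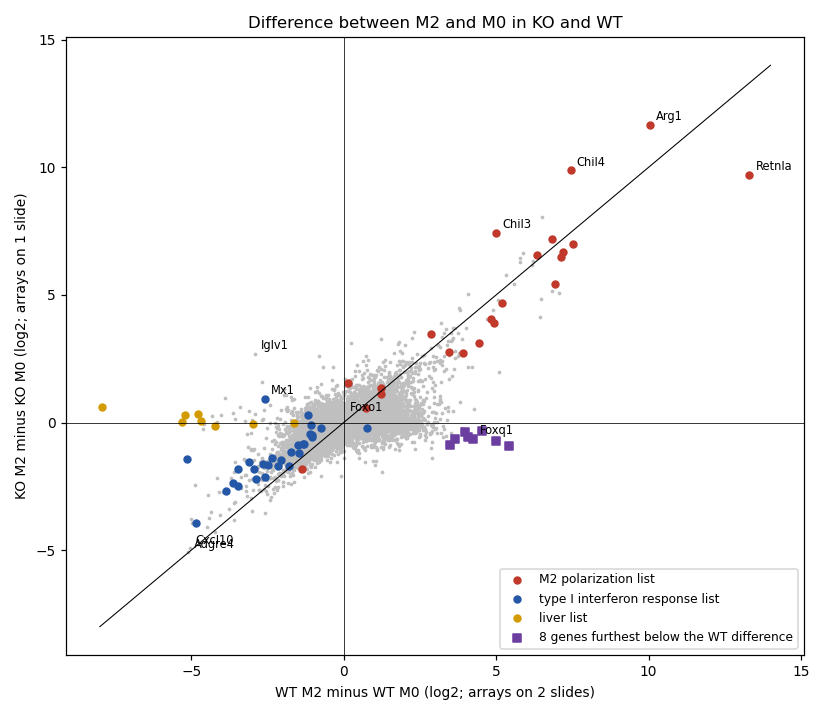
M2 minus M0 (log2) in WT (x axis) and KO (y axis) for 16671 genes measured on the 4 arrays; the line marks equal differences. M2 polarization genes (red) follow the line from Arg1 downward, interferon genes (blue) lie above it, liver genes (yellow) spread along the WT axis to -7.93 for Serpina1d while staying near 0 in KO, and the 8 genes furthest below the WT difference (purple) are near 0 in KO as well.

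The KO and WT responses were ranked against each other in genes well above background on all 4 M0 and M2 arrays, with the liver list left out. The 8 genes furthest from the WT response each way had less than a 2-fold difference in KO, with the exception of Iglv1 and an unnamed transcript. Of the 8 furthest below, Gm9292 differed by -0.92 in KO and 5.41 in WT, Gm9806 by -0.73 and 4.99, Slc16a8 by -0.35 and 4.53, Foxq1 by -0.63 and 4.25, Grin2d by -0.63 and 3.67, and Trim54 by -0.87 and 3.50. Foxq1 had levels of 2.38, 2.16 and 1.75 on KO M0, M1 and M2, of 0.17 and 0.12 on WT M0 and M1, and of 4.43 on WT M2, so the KO arrays lay between the WT arrays of the first slide and WT M2. Of the 8 furthest above, Cyp3a41a, Serpina3m, Itih3, Azgp1, Saa2 and Mug1 are genes of liver and plasma proteins outside the liver list, with KO differences from -0.24 for Mug1 to 0.97 for Cyp3a41a and WT differences from -3.88 for Cyp3a41a to -4.60 for Mug1. Iglv1, an immunoglobulin light chain segment, and an unnamed transcript were higher in KO and lower in WT. Under normexp the KO difference of Iglv1 was 0.03 and that of the unnamed transcript 1.67.

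One model tested M2 against M0, with both genotypes and all 6 arrays, state and genotype as terms and 2 residual degrees of freedom. It passed 17 genes higher (0.0895% of 19000) and 4 lower (0.0211%) at an adjusted p under 0.05 (limma, Benjamini-Hochberg), and 1888 and 1794 at an unadjusted p under 0.05. Pdcd1lg2 had a modelled difference of 7.01 ± 0.21 (SE; limma adjusted p = 0.0416), Il31ra, Ccl17, Slc7a2, Cdh1, Pla2g5, Gda and Nfil3 passed with it, and Pilra, Pilrb1 and Adgre4 passed on the low side, each in the same direction in both genotypes. Arg1, with a modelled difference of 10.85 ± 0.88 (SE; limma adjusted p = 0.0588), Retnla (0.0585) and Chil4 (0.0609) did not pass. Leaving out WT M0, WT M1, WT M2, KO M0 or KO M1 left no gene past the threshold, and leaving out KO M2 gave 1160 higher and 242 lower. With slide as a block, or under normexp, no gene passed. The model assumes that the cytokine effect is the same in both genotypes. With 1 array for each genotype and state, its p-values rest on the departure of these arrays from that assumption, slide and liver RNA included. They measure no spread between replicate cultures. The fits with slide as a block and without WT M2 coincide, as do those without WT M1 and without KO M1, so these are not separate checks.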

How the data were processed

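RNA of 6 macrophage cultures was hybridised to 1-colour Agilent arrays, 1 array for each genotype and state. The deposited scanner files give each spot's intensity, background-corrected by the scanner software (Feature Extraction 10.7.3.1) on an mm9 design, per the file headers. The authors' value table holds log2 values, per a comparison with the scanner files, and served as an alternative. Intensities were scaled as log2 minus each array's 75th percentile. Control and outlier spots were left out, spots of a probe averaged, and the brightest probe over the KO pair stood for a gene. Genes well above background on at least 1 KO array were kept. At least 2-fold counted as higher or lower. The only test was limma 3.58.1 (R 4.3.3) over 6 arrays, tested on simulated data. Array number limits the precision. Genes were named by rule: Foxo1, the 15 highest and lowest, the 8 largest bounds each way, the 8 furthest from WT each way, and members of 50 gene lists. Those furthest from WT were taken from genes well above background on all 4 M0 and M2 arrays and outside the liver list. Genes, lists and motifs were chosen with earlier results of these data known. Alternatives were array median, quantile and normexp scaling, the authors' table, all probes, other filters, and arrays left out. Some genes are not reported here.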

Additional observations from a re-analysis of the deposited data

Results flagged for a closer look

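In 3 genes named by rule or list the KO pair and the WT pair differed at least 2-fold in opposite directions, with 1 array on each side, and the difference between the genotypes was not tested. Iglv1, an immunoglobulin light chain segment, had a KO difference of 2.68 and a WT difference of -2.92, and its 3 probes ranged from 1.02 to 2.68 in KO. Its KO M0 signal was only 26.9, and under normexp its KO difference was 0.03, so the KO rise depends on the background correction. The unnamed transcript NAP012158-001 had 1.60 in KO and -2.69 in WT. Col6a2, a collagen chain of the stromal list, had -1.68 in KO and 1.02 in WT. Over all genes well above background on the 4 arrays, 18 were opposite in this way.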

How the results depend on the processing

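No paired analysis was possible because each genotype and state had 1 array and no replicate number pairs them; genotype stood in the limma model as a term. The KO counts of 801 higher and 723 lower genes stayed within 1.5 times under array median and quantile scaling, the authors' table, all probes and both filters, and with a floor from probes only partly above background (861 and 723), an alternative chosen after seeing the data. Under normexp they were 389 and 6683, the median gene moved to -0.43, and 5.50% of called genes were higher, against 52.6%. The M2 polarization median was 3.12 under normexp, 4.37 for genes measured on both arrays and 4.05 with dim genes at their bound. Under normexp the MHC class II median was 1.74 and the type I interferon median -1.14. Of 247 named or listed genes past 2-fold, 186 passed the same way under every scaling and probe alternative. Under normexp the sign turned for 16 named or listed genes, among them Cdh1 (-0.53), Msx3 (-0.12), Snhg11 (-0.058), Il1rl1 (-0.19) and Cxcr2 (-1.34), and also for Ffar4 (-0.030), Scn3a (-0.68), Scn2b (-0.85) and Scn1a (-0.81); the cause was not tested. The limma model passed 17 higher and 4 lower genes (adjusted p under 0.05), 260 and 284 under array median, 97 and 61 under quantile scaling, 99 and 64 in the authors' table, 544 and 603 with an intensity trend, 124 and 113 for genes measured on all 4 M0 and M2 arrays, and 0 and 0 under normexp and with slide as a block. Leaving out 1 array gave 0 to 1160 higher and 0 to 242 lower.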

Other observations

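Chosen after the values were seen, 3 voltage-gated sodium channel genes, which carry action potentials in neurons, were well above background on KO M2 and not on KO M0. Scn3a was at least 11.0-fold higher, Scn2b at least 9.52-fold and Scn1a at least 8.19-fold, and all 3 were negative under normexp.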
